A study of Homo sapiens with 8 samples.

Results

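The genes described here are 8 surface receptors that plasma cells use to reach the bone marrow and hold on there, out of 63677 genes counted. They are CXCR4, ITGA4, ITGB1, ITGAL, ITGB2, CD44, ICAM1 and SELPLG, chosen by symbol for their known role, with earlier results of these data known, and each symbol mapped to 1 Ensembl gene. RNA was sequenced from the multiple myeloma (MM) cell lines JJN3 and H929, grown in RPMI-1640 medium with 10% serum, after 24 h with 50 nM THZ1 or with its vehicle DMSO. THZ1 is a covalent inhibitor of CDK7, a kinase that phosphorylates RNA polymerase II as transcription starts. The series' design text dates the RNA from a knockdown, which neither the sample labels nor the paper's methods describe for these libraries, and they are taken here as treated with THZ1 or DMSO. Each line and treatment had 2 libraries, so the 8 libraries form 4 groups named JJN3 DMSO, JJN3 THZ1, H929 DMSO and H929 THZ1. Both lines are grown from patients' malignant plasma cells, JJN3 carries a translocation that activates MAF, and H929 carries one that activates WHSC1 (MMSET) and FGFR3. The total count was 17476443 to 19194371 per library. A count of 3, the most that a count of 0 allows for, equalled 0.154 to 0.183 normalized CPM (counts scaled to a common library size), and this limit covers counting error only, because reads are not independent molecules.

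Homing to the marrow works in steps. CXCR4 senses the chemokine CXCL12 made by marrow stroma, and its signal switches integrins on the same cell to a state that binds tightly. The integrin VLA-4, a pair of ITGA4 (alpha 4) and ITGB1 (beta 1), binds VCAM1 and fibronectin, and LFA-1, a pair of ITGAL (alpha L) and ITGB2 (beta 2), binds ICAM1. CD44 binds hyaluronan in the matrix, and SELPLG (PSGL-1) carries the glycans that selectins on the vessel wall catch. These pairs matter in myeloma because adhesion to stroma is known to protect plasma cells from drugs.

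The labels of the libraries were checked first. Of the counts on immunoglobulin light chain V genes, which mark a plasma cell clone, lambda genes held 0.257% to 0.391% in the 4 JJN3 libraries, 99.99% and 97.96% in the H929 DMSO libraries, and 0.211% to 0.212% in the H929 THZ1 libraries. FGFR3 had 14117 and 13411 counts under the H929 THZ1 label, against 45 and 285 under the H929 DMSO label and 0 to 2 in JJN3. WHSC1 had 2835 to 3362 counts in JJN3, 6544 and 7026 under the H929 DMSO label and 15702 and 16276 under the H929 THZ1 label. MAF had 18006 and 16310 counts under the H929 DMSO label and 2729 and 2942 under the H929 THZ1 label. The libraries labelled H929 DMSO and H929 THZ1 therefore differed in light chain, FGFR3 and MAF as well as in treatment label, and the values below for H929 compare libraries as labelled, in which treatment and the source of the cells cannot be told apart. The 4 JJN3 libraries were alike in light chain class and in FGFR3, and they are taken as 1 clone for the comparison of THZ1 with DMSO. Light chain class alone does not identify a clone. Comparisons of lines below, and the interaction of line and treatment, set libraries labelled H929 against JJN3 libraries. They do not take the H929 DMSO and H929 THZ1 libraries as 1 clone. Plasma cell markers summed to 3399 to 11820 CPM in each library, while the 6 monocyte and macrophage markers summed to 0.0512 to 1.08 CPM, with 3 of the 6 (FCGR1A, MRC1 and VSIG4) at 0 throughout. The 6 stromal and endothelial markers summed to 0.159 to 5.34 CPM, with CDH5 at 0 throughout, and the 6 T cell markers to 2.77 to 36.6 CPM, most of it CD3E under the H929 THZ1 label. In JJN3, 5 of the 9 plasma cell markers tested were lower with THZ1, and 2 of the 3 T cell markers tested were higher. Of all genes tested in JJN3, 21.3% were called lower and 20.6% higher. The T cell markers were rare there, CD3E with 36 and 32 counts under DMSO against 75 and 50 under THZ1. TRAC had 12 and 7 against 18 and 47, and CD8A went the other way, with 15 and 15 against 6 and 8. The part of these differences in the results below was not tested.

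A further difference touched 2 of the receptors and was found after the values were seen. A set of 31 genes had at most 3 counts in H929 DMSO replicate 1 and a mean of at least 100 CPM under the H929 THZ1 label. In H929 DMSO replicate 2 all 31 were present, each at 1.75% to 2.33% of its H929 THZ1 level above replicate 1, with a median of 2.06%. CD44 is one of the 31 by this rule, with a difference between the replicates of 2.11% of its H929 THZ1 level. For ITGA4, which is not one of them, the difference was 1.77%. ITGAL and ITGB1 were lower in replicate 2 than in replicate 1, with differences of -0.205% and -0.419% of their H929 THZ1 level. Fold changes of CD44 and ITGA4 that rest on that library are given with and without it.

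**Figure D1:**
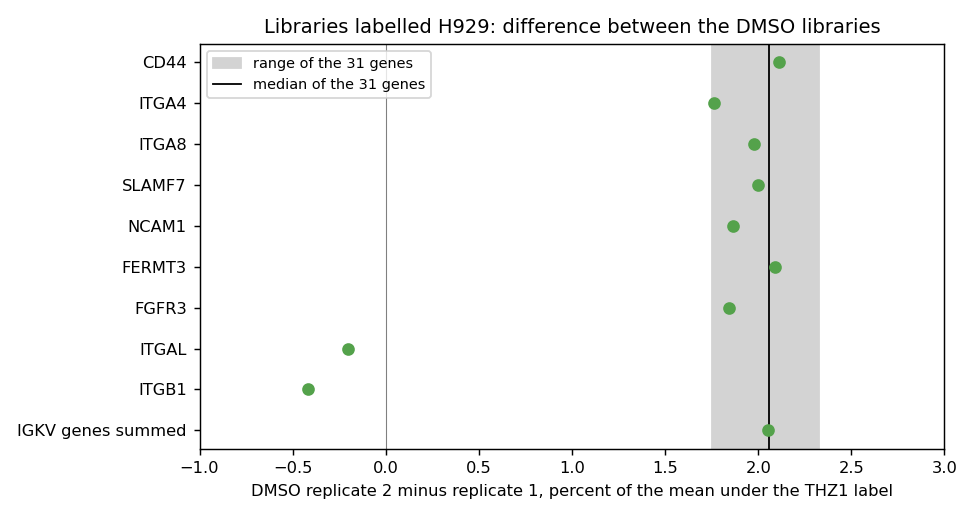
Difference between the 2 libraries labelled H929 DMSO (replicate 2 minus replicate 1, on the x axis, in percent of the mean CPM under the H929 THZ1 label) for named genes on the y axis, with the range (grey band, 1.75% to 2.33%) and median (line, 2.06%) of the 31 genes. CD44 (2.11%), ITGA8, SLAMF7, NCAM1 and the abundant kappa V genes are among the 31 and so lie in the band by construction, while ITGA4 (1.77%), FERMT3 (2.09%) and FGFR3 (1.84%) are not among them, and ITGAL and ITGB1 lie below 0.

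Promoters were searched for 4 of the receptors, the 2 that rose in JJN3 (ITGB1 and CD44), the one that fell most there (ICAM1), and CXCR4, which had the largest log2 fold change between the H929 labels. The sequences of ICAM1 and CXCR4 are shown. Each window is the 250 bases before the most upstream start site in RefSeq's promoter table (GRCh38.p14), and each matched GRCh37, the sequence of the hg19 build the authors used, exactly once. The GENCODE gene spans given below start further upstream for ITGB1 (window chr10:33247159-33247408, minus strand), CD44 (chr11:35160468-35160717, plus strand) and CXCR4, so these windows lie inside those spans and the 2 annotations differ in where the genes start. The ICAM1 window ends inside its span. The sequences of ITGB1 and CD44 are not shown, because minor transcripts in GENCODE place untranslated exon in those windows. Of the 8 receptors, 5 were in that table, ITGA4 included. Capitals mark the motifs searched on both strands, which were TATAAA (the TATA box, in 10.7% of the 35116 promoters of this length in the table), GGAAATTCC (an NF-kB motif, 0.413%), GGGCGG (the GC box, 42.6%) and CCAAT (the CCAAT box, 32.0%).
ICAM1, chr19:10381546-10381795, plus strand: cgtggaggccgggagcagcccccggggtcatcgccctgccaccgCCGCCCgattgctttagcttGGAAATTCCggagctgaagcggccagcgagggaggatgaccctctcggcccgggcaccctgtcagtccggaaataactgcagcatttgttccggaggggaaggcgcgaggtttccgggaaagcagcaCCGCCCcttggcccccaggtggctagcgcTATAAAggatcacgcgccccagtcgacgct
CXCR4, chr2:136875720-136875969, minus strand: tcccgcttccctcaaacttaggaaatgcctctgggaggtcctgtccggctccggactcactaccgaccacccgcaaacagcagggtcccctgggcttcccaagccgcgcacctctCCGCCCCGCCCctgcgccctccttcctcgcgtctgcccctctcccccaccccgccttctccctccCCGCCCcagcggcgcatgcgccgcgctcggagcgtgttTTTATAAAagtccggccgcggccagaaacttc
Counted back from the start site, the ICAM1 promoter held a TATA box at -30, the NF-kB motif at -186 and GC boxes at -206 and -59. The ITGB1 and CD44 promoters held GC boxes, at -160, -89 and -58 in ITGB1 and at -170 and -152 in CD44, and neither held these TATA box letters. The CXCR4 promoter held TATA box letters on both strands at -32 and -30, and GC boxes at -135, -130 and -70. None of the 4 windows held CCAAT. A match is a run of letters and not a measured binding site.

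Across the receptors, JJN3 cells treated with THZ1 had more ITGB1 and CD44 and less ICAM1, SELPLG and ITGAL RNA than cells with DMSO, while CXCR4 and ITGA4 were not called and ITGB2 was close to 0. A gene was called where its log2 fold change lay beyond 0.5 and its p-value in the quasi-likelihood test of edgeR, adjusted by Benjamini-Hochberg over all genes tested, was under 0.05. In JJN3, 7 of the 8 receptors passed the filter on low counts, of which 3 were called lower, 2 higher and 2 neither. Of all 13984 genes tested in JJN3, 21.3% were called lower and 20.6% higher. The JJN3 THZ1 libraries lay wholly above or below the DMSO libraries for all 7 receptors, as for 79.9% of all genes tested. The median log2 fold change of the 7 receptors was -0.14, and that of all genes tested was -0.00036. Between the H929 labels, 3 of 8 receptors were called lower and 5 higher under THZ1, where 32.6% of all 14863 genes tested were called lower and 33.1% higher. The labels do not say that the 2 libraries of a group came from separate cultures, so p-values measure only the spread between these libraries, which may be technical. In bulk RNA, fewer cells with a transcript and less of it per cell cannot be told apart, and without a spike-in every level is relative to the rest of the library.

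**Figure D2:**
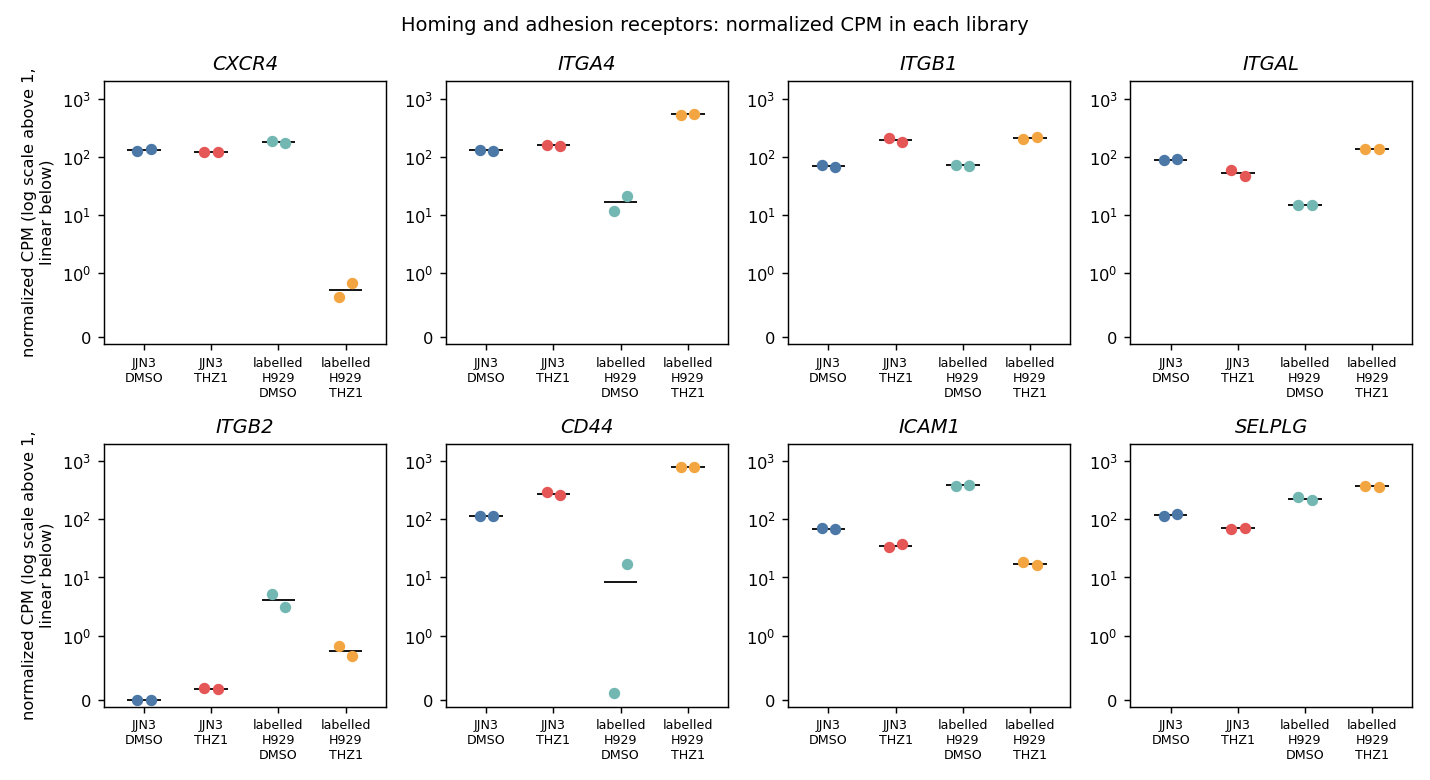
Normalized CPM of the 8 receptors in each of the 8 libraries (points, y axis, logarithmic above 1 and linear below) in the 4 groups on the x axis, with the mean of the 2 libraries as a bar. In JJN3 the THZ1 points lie above the DMSO points for ITGB1 and CD44 and below them for ICAM1, SELPLG and ITGAL, and the 2 points labelled H929 DMSO lie farthest apart for CD44, at 0.108 and 16.9 CPM.

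CXCR4 (ENSG00000121966, chr2:136871919-136876747 on the minus strand of GRCh37), the receptor for CXCL12, was nearly level in JJN3 and close to absent under the H929 THZ1 label. In JJN3 it had 2429 and 2679 counts under DMSO against 1933 and 2127 under THZ1, or 131.5 ± 8.17 against 118.3 ± 0.044 CPM (SD, n = 2 libraries each). Both JJN3 THZ1 libraries lay below both DMSO libraries, and the log2 fold change was -0.14 with a standard error of 0.081 (adjusted p = 0.163 from edgeR). Over the alternative settings it ran from -0.24 to -0.09, within the limit of 0.5 in each. In the libraries labelled H929, CXCR4 had 3478 and 3076 counts under DMSO against 12 and 16 under THZ1. These counts were 239-fold lower under the THZ1 label (log2 fold change -7.90, standard error 0.125, edgeR adjusted p = 4.81e-17). Between the DMSO libraries, CXCR4 was 1.35-fold higher under the H929 label than in JJN3, a log2 fold change of 0.44 that did not pass the limit of 0.5 (edgeR adjusted p = 1.70e-05).

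The partners of CXCR4 were mostly rare in JJN3. CXCL12, its ligand, had 18 and 27 counts under DMSO against 5 and 3 under THZ1 in JJN3, 988 and 881 under the H929 DMSO label and 0 in both libraries labelled H929 THZ1. In JJN3 the levels of CXCL12 were 0.167 to 1.38 CPM, close to the limit of 3 counts with THZ1. It passed the filter on low counts there only through the DMSO libraries, so no test of that difference is used. ACKR3, the scavenger receptor that removes CXCL12, had 11 and 24 counts under DMSO against 9 and 6 under THZ1 in JJN3 and 0 in all 4 libraries labelled H929. In JJN3 it too passed the filter only through the DMSO libraries, so no test is used. CXCR3, a receptor for interferon-induced chemokines, had 0 to 2 counts in JJN3 and 214 to 451 in the libraries labelled H929.

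Other receptors that steer plasma cells moved in both directions in JJN3. CCR1, a receptor for inflammatory chemokines and a known target of MAF, had 2101 and 2125 counts under DMSO against 1001 and 1029 under THZ1, and it fell (log2 fold change -0.86, standard error 0.080, edgeR adjusted p = 7.05e-06). MAF itself had 16305 and 16840 counts under DMSO against 8873 and 10362 under THZ1 in JJN3. Whether the changes of MAF and CCR1 are linked was not tested. CCR2, the receptor for the monocyte attractant CCL2, rose from 38 and 39 to 124 and 141 counts (log2 fold change 1.97, standard error 0.21). S1PR1, the sphingosine 1-phosphate receptor that draws lymphocytes out of tissue into blood, rose from 824 and 802 to 1153 and 1113 counts (log2 fold change 0.68, standard error 0.091). Of the 23 chemokine and S1P receptors listed, 8 could be tested in JJN3, of which 2 were lower and 3 higher. These were 25% and 37.5% of the 8, against 21.3% and 20.6% of all genes tested in JJN3.

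The subunits of VLA-4 differed in JJN3. ITGB1 (ENSG00000150093, chr10:33176201-33294720, minus strand), the beta chain shared by many integrins, had 1392 and 1290 counts under DMSO against 3485 and 3225 under THZ1, or 69.1 ± 4.21 against 196.2 ± 23.9 CPM. Both THZ1 libraries lay above both DMSO libraries, a 2.87-fold rise (log2 fold change 1.52, standard error 0.098, edgeR adjusted p = 1.04e-06). ITGA4 (ENSG00000115232, chr2:182321929-182403667, plus strand), the alpha chain, had 2538 and 2460 counts under DMSO against 2645 and 2731 under THZ1, or 129 ± 3.76 against 156.8 ± 7.0 CPM. Its groups did not overlap either, but the log2 fold change of 0.30 (standard error 0.079, edgeR adjusted p = 0.00697) did not pass the limit of 0.5. Exons of ITGA4 overlap exons of CERKL on the opposite strand, which had 7949 counts over the 8 libraries, and since the sources used here do not say whether counting used strand, reads of both genes may be mixed.

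Of the 8 receptors, ITGB1 differed least between the libraries labelled H929 and those of JJN3. It had 1320 and 1266 counts under the H929 DMSO label and 3817 and 4061 under the H929 THZ1 label, a log2 fold change of 1.56 (standard error 0.057, edgeR adjusted p = 6.43e-13). The change under the H929 labels exceeded that in JJN3 by 0.05 on the log2 scale, with a standard error of 0.119 (adjusted p = 0.756 from edgeR). Between lines, ITGB1 differed by 0.03 with DMSO (standard error 0.067, adjusted p = 0.737) and by 0.10 with THZ1 (standard error 0.093, adjusted p = 0.316), both log2 fold changes of the H929 label over JJN3. These 3 small values took both signs over the alternative settings.

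ITGA4 was the subunit of VLA-4 that separated the libraries. It had 217 and 380 counts under the H929 DMSO label, the lowest of the 4 groups, and 9892 and 10281 under the H929 THZ1 label, the highest. The log2 fold change between the H929 labels was 5.03 (standard error 0.137, edgeR adjusted p = 1.98e-14), and it was 4.65 without H929 DMSO replicate 1 and 5.53 without replicate 2. Against JJN3, ITGA4 was 7.92-fold lower in the H929 DMSO libraries, a log2 fold change of -2.98 that was -2.61 without H929 DMSO replicate 1 and -3.47 without replicate 2. It was 3.45-fold higher than JJN3 in the H929 THZ1 libraries. Per kilobase of canonical transcript, the level of ITGA4 relative to ITGB1 was 1.00 and 1.05 in the JJN3 DMSO libraries and 0.418 and 0.466 in the JJN3 THZ1 libraries. Under the H929 labels the same ratio was 0.0906 and 0.165 with DMSO and 1.43 and 1.39 with THZ1. With lengths from all exons of the gene in place of the canonical transcript, the JJN3 ratios were 2.49 and 2.61 with DMSO and 1.04 and 1.16 with THZ1, so the size of the ratio depends on the length used.

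ITGA4 also pairs with ITGB7, the beta chain that binds the gut vessel ligand MADCAM1 and E-cadherin and that MAF is known to drive in myeloma. ITGB7 had 6592 and 7503 counts under DMSO against 11194 and 10263 under THZ1 in JJN3, a rise of 0.81 on the log2 scale (standard error 0.110, edgeR adjusted p = 9.33e-05). It had 14795 and 14207 counts under the H929 DMSO label and 76538 and 72695 under the H929 THZ1 label. In every library the level of ITGB7 per kilobase exceeded that of ITGB1, by 4.24-fold to 7.74-fold in JJN3 and by 14.9-fold to 26.7-fold under the H929 labels, or by 10.4-fold to 19.0-fold and 36.7-fold to 65.6-fold with lengths from all exons. VCAM1, the endothelial and stromal ligand of VLA-4, had 0 counts in all JJN3 libraries and under the H929 THZ1 label, and 12 and 7 under the H929 DMSO label.

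The beta chain of LFA-1 was at the limit of detection in JJN3. ITGB2 (ENSG00000160255, chr21:46305868-46351904, minus strand) had 0 counts in both JJN3 DMSO libraries and 3 in both JJN3 THZ1 libraries, at or under the limit of 3 counts, so no fold change is given. It had 96 and 55 counts under the H929 DMSO label and 16 and 13 under the H929 THZ1 label, a log2 fold change of -2.41 (standard error 0.33, edgeR adjusted p = 5.48e-06). Its mean level under the H929 DMSO label, 4.11 CPM, was 26.5-fold the limit of 3 counts per library in JJN3 with DMSO, 0.155 CPM. The H929 DMSO libraries behind that mean had 5.17 and 3.05 CPM, so the factor is not a lower bound. With THZ1 there were 29 counts in all under the H929 label and 6 in JJN3, a ratio of 4.37 with a 95% counting interval of 1.78 to 12.9. ITGB2 passed the filter on low counts there only through the H929 libraries, so no test of that difference is used. In all 8 libraries ITGB2 had a lower level per kilobase than ITGAL.

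ITGAL (ENSG00000005844, chr16:30483979-30534888, plus strand), the alpha chain of LFA-1, was well covered and fell in JJN3. It had 1666 and 1763 counts under DMSO against 959 and 840 under THZ1, or 88.3 ± 2.90 against 52.7 ± 8.44 CPM, and the groups did not overlap. The level was 1.66-fold lower with THZ1 (log2 fold change -0.73, standard error 0.105, edgeR adjusted p = 0.000137). Under the H929 labels ITGAL had 276 and 263 counts under DMSO against 2596 and 2533 under THZ1, the opposite direction (log2 fold change 3.20, standard error 0.071). Its level per kilobase exceeded that of ITGB2 by 1.57-fold and 2.62-fold in the H929 DMSO libraries and by 88.8-fold and 107-fold in the H929 THZ1 libraries.

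ICAM1 (ENSG00000090339, chr19:10381769-10397291, plus strand), the ligand of LFA-1 and a gene that NF-kB is known to induce, fell most of the receptors in JJN3. It had 1361 and 1337 counts under DMSO against 546 and 665 under THZ1, or 69.5 ± 1.37 against 35.2 ± 2.54 CPM. Both THZ1 libraries lay below both DMSO libraries, 1.95-fold lower (log2 fold change -0.97, standard error 0.089, edgeR adjusted p = 6.87e-06). Under the H929 labels ICAM1 had 6977 and 7121 counts with DMSO, the highest of the 4 groups, and 345 and 311 with THZ1. That was 22.2-fold lower (log2 fold change -4.47, standard error 0.069, edgeR adjusted p = 3.57e-17). With DMSO it was 5.52-fold higher under the H929 label than in JJN3, and with THZ1 2.00-fold lower. Of the ligands related to it, ICAM2 had 67 and 88 counts under DMSO against 53 and 60 under THZ1 in JJN3. ICAM3 had 400 and 402 counts under DMSO against 471 and 420 under THZ1 in JJN3, and neither was called there. Between the H929 labels, both ICAM2 and ICAM3 were called higher under THZ1.

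CD44 (ENSG00000026508, chr11:35160429-35253949, plus strand), the hyaluronan receptor, rose in JJN3. It had 2213 and 2210 counts under DMSO against 4763 and 4675 under THZ1, or 114 ± 0.922 against 276 ± 22.2 CPM, with no overlap. The level was 2.45-fold higher with THZ1 (log2 fold change 1.29, standard error 0.086, edgeR adjusted p = 1.11e-06). Counts were made per gene, so the standard form and the variant forms of CD44 were not separated. ESRP1, a splicing factor known to favour the variant exons, had 6 to 15 counts in the JJN3 libraries.

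Under the H929 labels CD44 had 2 and 305 counts under DMSO against 14927 and 15298 under THZ1, so 1 group was close to empty in 1 library only. The log2 fold change was 6.57 (standard error 0.45, edgeR adjusted p = 1.22e-09), and it was 5.55 without H929 DMSO replicate 1 and 12.79 without replicate 2. In DESeq2 the adjusted p of this change was 0.00573. Taken alone, replicate 1 with its 2 counts gave a ratio of 7401 to the THZ1 label, with a 95% counting interval of 2049 to 61110, and replicate 2 gave 47.1, with 42.1 to 52.9. With DMSO, CD44 was lower under the H929 label than in JJN3 (log2 fold change -3.76, standard error 0.50), at -2.75 without H929 DMSO replicate 1 and -9.97 without replicate 2. That difference passed the threshold in edgeR (adjusted p = 7.67e-06) and not in DESeq2 (0.132). With THZ1 the H929 label was 2.94-fold higher than JJN3 (log2 fold change 1.55, standard error 0.091, edgeR adjusted p = 3.20e-08).

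SELPLG (ENSG00000110876, chr12:109015671-109027670, minus strand), the selectin ligand, fell in JJN3. It had 2181 and 2377 counts under DMSO against 1104 and 1293 under THZ1, or 117 ± 6.30 against 69.7 ± 3.10 CPM. The groups did not overlap, and the level was 1.66-fold lower with THZ1 (log2 fold change -0.74, standard error 0.083, edgeR adjusted p = 2.59e-05). Under the H929 labels it had 4423 and 3930 counts under DMSO against 7165 and 6888 under THZ1, the opposite direction (log2 fold change 0.71, standard error 0.056, edgeR adjusted p = 7.59e-09). It was higher under the H929 label than in JJN3 by 1.93-fold with DMSO and by 5.40-fold with THZ1. Of the enzymes that build its glycan, GCNT1, which starts the core branch, fell in JJN3 (361 and 336 counts with DMSO, 162 and 201 with THZ1, log2 fold change -0.75, standard error 0.131, edgeR adjusted p = 0.000538). FUT7, which adds the fucose that selectins need, had at most 4 counts in any library.

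The order of the receptors was compared as mean CPM per kilobase of canonical transcript. In JJN3 with DMSO, CXCR4 led at 78.8, followed by SELPLG (45.6), ICAM1 (23.4), CD44 (21.0), ITGA4 (19.0), ITGB1 (18.5), ITGAL (17.2) and ITGB2 (0). The ranges of ITGA4 and ITGB1 overlapped, and those of the other neighbours did not. In JJN3 with THZ1, CXCR4 still led at 70.9, and ITGB1 (52.5) and CD44 (50.8), whose ranges overlapped, followed it. SELPLG (27.1), ITGA4 (23.1), ICAM1 (11.9) and ITGAL (10.3) came after them, and the ranges of ICAM1 and ITGAL overlapped. In the libraries labelled H929 DMSO the order was led by ICAM1 (130), CXCR4 (107) and SELPLG (88.6). Below these, ITGB1 stood at 18.9, and ITGAL (2.87), ITGA4 (2.41), CD44 (1.57) and ITGB2 (1.46) each overlapped the next. The value for CD44 is a mean of 0.0198 and 3.11 in replicates 1 and 2, so its place there rests on which library is used. Under the H929 THZ1 label CD44 (147) and SELPLG (144) led with overlapping ranges, ahead of ITGA4 (78.4), ITGB1 (55.6) and ITGAL (26.4), while ICAM1 stood at 5.83 and CXCR4 (0.442) and ITGB2 (0.272) were lowest. With lengths from all exons, ITGB1 had rank 7 in JJN3 with DMSO and rank 5 with THZ1, its exons measuring 14561 bases in all and its canonical transcript 3735, and SELPLG came ahead of CXCR4 under the H929 DMSO label and ahead of CD44 under the H929 THZ1 label.

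Between the lines with DMSO, 3 receptors (ITGA4, ITGAL and CD44) were called lower under the H929 label than in JJN3 and 2 (ICAM1 and SELPLG) higher, leaving out ITGB2. Of all 14590 genes tested there, 32.6% were called lower and 33.0% higher. With THZ1, CXCR4 and ICAM1 were called lower and 4 receptors (ITGA4, ITGAL, CD44 and SELPLG) higher, again without ITGB2, against 32.5% and 34.0% of all 14981 genes tested. ITGB2 passed the filter in these comparisons only through the H929 libraries, so it is not counted and its values are those given above. CXCR4 with THZ1 was 156-fold lower under the H929 label (log2 fold change -7.29, standard error 0.141), the largest difference between lines among the receptors with THZ1. The 2 comparisons of lines and the 2 of treatments use the same 8 libraries, and line, deposited table and any batch cannot be told apart. In the interaction of line and treatment, 2 receptors (CXCR4 and ICAM1) were called lower, 4 higher and 1 (ITGB1) neither, with ITGB2 left out because it has no fold change in JJN3, where 25.5% of all 16122 genes tested were called lower and 28.1% higher.

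The genes around the receptors were read from 8 lists of 195 genes in all, sorted by role, of which 134 could be tested in JJN3. Of these, 22 were lower and 41 higher (16.4% and 30.6%), against 21.3% and 20.6% of all genes tested in JJN3. Those shares of all genes hold for the JJN3 counts of each list below too. The median log2 fold change of the 134 genes was 0.22. With total counts in place of TMM scaling, which moved the median of all genes in JJN3 to -0.10, 26 were lower and 33 higher (19.4% and 24.6%), against 26.0% and 16.8% of all genes tested.

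**Figure D3:**
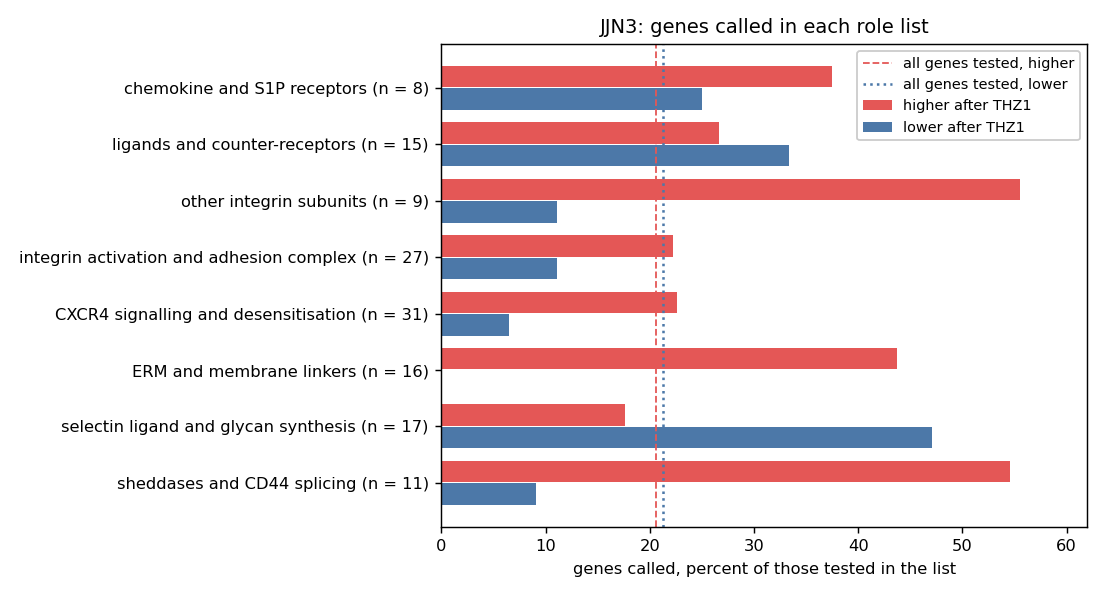
Percent of the genes tested in each of the 8 role lists (y axis, with the number tested) that were called higher (red bars) or lower (blue bars) in JJN3 with THZ1, with the same percent over all genes tested as broken lines (20.6% higher, 21.3% lower). The selectin ligand and glycan list has 47.1% of its genes lower, and the ERM list has 43.8% higher and 0 lower.

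Among 22 other integrin subunits, 9 could be tested in JJN3, of which 1 was lower and 5 higher, with a median log2 fold change of 0.81. ITGAV, the alpha chain of receptors for vitronectin and fibronectin, rose from 449 and 494 to 1041 and 1144 counts (log2 fold change 1.41, standard error 0.091, edgeR adjusted p = 1.08e-06). ITGAE, the alpha chain that pairs with ITGB7, fell from 368 and 372 to 201 and 230 counts (log2 fold change -0.59, standard error 0.119). ITGA5, the fibronectin receptor's alpha chain, had 0 to 2 counts in JJN3 and 102 and 87 under the H929 DMSO label. Among 31 genes of integrin activation, 27 were tested, of which 3 were lower and 6 higher, with a median of 0.17. FERMT1 (kindlin-1), which binds beta tails, fell by 0.96 on the log2 scale, and APBB1IP (RIAM), which brings talin to the membrane, fell by 0.55. CYTH1 (cytohesin-1), a regulator of LFA-1, rose by 1.00, and PXN (paxillin), which binds the tail of alpha 4, rose by 0.97.

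Among 26 ligands and counter-receptors, 15 were tested, with 5 lower and 4 higher in JJN3 and a median of 0.23. CXCL12, which passed the filter only through the DMSO libraries, is among the lower. HAS3, which makes the hyaluronan that CD44 binds, fell from 115 and 116 to 36 and 53 counts (log2 fold change -1.18, standard error 0.23), and CD58, the ligand of CD2, fell by 0.77 on the log2 scale. JAM3, a junctional adhesion molecule, rose by 1.15 and ICAM5 by 0.97. Among 35 genes of CXCR4 signalling and its shutdown, 31 were tested, with 2 lower and 7 higher and a median of 0.19, and with total counts 5 were lower and 5 higher. RGS19 and RGS16, which end signalling by G proteins, fell by 0.93 and 0.59 on the log2 scale. RHOH, a small GTPase of blood cells, rose by 0.90 and STAM, an adaptor that sorts receptors to lysosomes, rose by 0.87.

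Among 18 ERM proteins (ezrin, radixin and moesin) and membrane linkers, which tie CD44 and SELPLG to the actin skeleton, 16 were tested in JJN3. Of these, 7 were higher (43.8%) and none was lower in edgeR at any p, with log2 fold changes of 0.06 to 1.23 and a median of 0.44. With total counts 5 were higher, and with DESeq2's size factors 8. SLK, a kinase that phosphorylates ERM proteins, rose from 1226 and 1085 to 2222 and 2518 counts (log2 fold change 1.23, standard error 0.087, edgeR adjusted p = 1.50e-06). CD82, a tetraspanin that groups integrins, had 260 and 233 counts under DMSO against 323 and 604 under THZ1 (log2 fold change 1.09, standard error 0.21), so its treated libraries lay far apart.

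Among 22 genes of selectin ligand and glycan synthesis, 17 were tested in JJN3, of which 8 were lower (47.1%) and 3 higher, with a median of -0.35. CHST2, a sulfotransferase of selectin ligands, fell from 272 and 278 to 92 and 95 counts (log2 fold change -1.36, standard error 0.149, edgeR adjusted p = 2.05e-05), and POFUT1, which adds fucose to Notch receptors, fell by 0.88. B4GALT1, a galactosyltransferase, rose from 224 and 205 to 518 and 584 counts (log2 fold change 1.55, standard error 0.114), and ST3GAL6, a sialyltransferase, rose by 0.73. The paper reports the opposite direction for ST3GAL6 in JJN3 by quantitative PCR, at a lower THZ1 dose. The reason for that difference was not tested. Among 18 sheddases, their inhibitors and CD44 splicing factors, 11 were tested, with 1 lower and 6 higher and a median of 0.55. ADAM17, which sheds proteins from the cell surface, rose by 0.82, and TIMP2, an inhibitor of metalloproteases, rose by 0.86. HYAL2, a hyaluronidase, fell by 0.54.

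**Figure D4:**
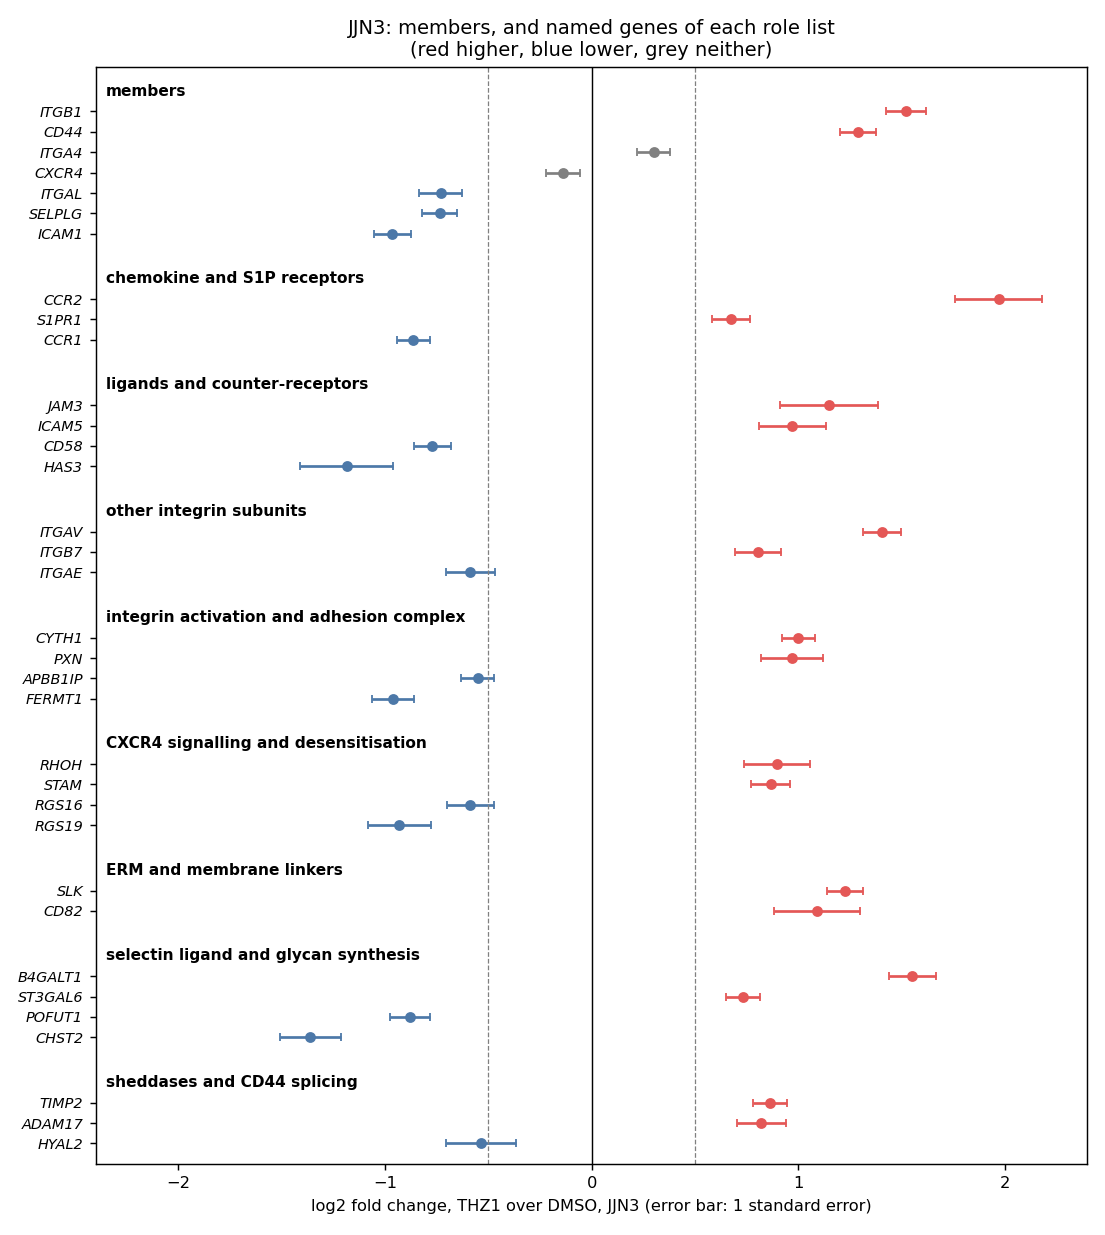
Log2 fold change of THZ1 over DMSO in JJN3 (x axis, with 1 standard error as a bar, from 2 libraries against 2) for the 7 receptors tested and for up to 2 falls and 2 rises of each role list, the largest among called genes whose groups did not overlap and whose log2 CPM averaged 2 or more, with broken lines at the limit of 0.5. Among the receptors ITGB1 (1.52) and CD44 (1.29) lie right of the limit, ITGAL (-0.73), SELPLG (-0.74) and ICAM1 (-0.97) lie left of it, and ITGA4 and CXCR4 lie between.

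Under the H929 labels 148 of the 195 genes were tested, of which 60 were lower and 54 higher (40.5% and 36.5%), against the 32.6% and 33.1% of all genes tested under these labels. In the chemokine and S1P receptor list 9 of the 11 tested were lower and 2 higher, and in the selectin ligand and glycan list 2 of 18 were lower and 10 higher. CCR2 had 3818 and 3279 counts under DMSO against 4 and 5 under THZ1 there, and S1PR1 had 26 and 23 against 1 and 2. Like CXCL12, both passed the filter on low counts only through the DMSO libraries, so only a fall could be called. Genes that passed through 1 label only are included in the list counts, and how many there are was not counted. ST3GAL6 had 1067 and 1426 counts under DMSO against 22635 and 23340 under THZ1 under these labels. CCR1 had 2992 and 2876 under DMSO against 5040 and 5252 under THZ1, the opposite direction to JJN3.

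The genes whose levels followed each receptor most closely were picked by the Pearson correlation of log2 CPM over the 8 libraries, among 8957 genes of sufficient level (8958 for ITGB2). For CXCR4 these were TNS3 (r = 0.999) and ST14 (0.998), for ITGA4 DENND3 (0.999) and LMO4 (0.998), and for ITGB1 CPEB2 (0.997) and SRPK2 (0.997). For ITGAL they were ALDH1L2 (0.997) and XPO7 (0.994), for ICAM1 PEF1 (0.999) and NUP93 (0.997), and for SELPLG COPG1 (0.998) and GFER (0.995). For CD44 they were the kappa V gene IGKV3-15 (0.994) and MAGED1 (0.988), and for ITGB2, at its low counts, AGBL5 (0.997) and FHL1 (0.996). These are descriptions over 4 groups of 2 libraries, with no test, and the libraries of a group share their cells and treatment.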

How the data were processed

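Libraries of total RNA were sequenced by the authors as 50-base single-end reads on an Illumina HiSeq4000, aligned to hg19 with STAR (2.5.2a in the submitters' processing notes) and counted per Ensembl gene with featureCounts. The deposited values are raw counts per gene, in 1 table per line, without normalization. Whether counting used strand is not given in the sources used here. The authors also deposited their DESeq2 comparison per line (mean normalized level, log2 fold change, error, test statistic and p-values), and from these tables only the pairing of IDs with symbols was used. The groups and replicate numbers came from the sample labels.

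Counts were tested with edgeR 4.0.16 in R 4.3.3 (TMM scaling, filterByExpr, quasi-likelihood test, Benjamini-Hochberg adjustment over all genes tested), within each line, between the lines at each treatment, and for the interaction of line and treatment (8 libraries). The limits for a call were those of the study, a log2 fold change beyond 0.5 with an adjusted p under 0.05. Standard errors were worked back from the edgeR test, as the log2 fold change without its sign divided by the square root of the F statistic. CPM are scaled by TMM over all 8 libraries. DESeq2 1.42.0, other scalings, filters and limits, a single fit of all libraries, a replicate block and leaving out each library were alternatives. The tests were tried on simulated data. The receptors, lists and tests were chosen with earlier results of these data known. All 8 receptors were named, a fixed set of their partners (1 of which is not reported here), and up to 2 falls and 2 rises per list by log2 fold change in JJN3 among called genes whose groups did not overlap and whose log2 CPM averaged 2 or more. The markers were read from fixed lists. Coordinates and lengths are from GENCODE's annotation of GRCh37, which is not the authors' annotation. Figures were drawn in Python 3.11.15.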

Additional observations from a re-analysis of the deposited data

Results flagged for a closer look

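For 6 of the receptors, ITGB2 being left out because it is at or under 3 counts in all JJN3 libraries, the change between the THZ1 and DMSO labels differed between the H929 labels and JJN3, by an interaction term fitted over all 8 libraries with edgeR and adjusted over all genes tested. The H929 labels differ in more than treatment, so these are differences between sets of libraries and not between the responses of 2 lines. The difference (change under the H929 labels minus change in JJN3, log2) was -7.76 for CXCR4 (standard error 0.168, adjusted p = 1.05e-14) and -3.50 for ICAM1 (standard error 0.116, adjusted p = 9.41e-13). It was 4.74 for ITGA4 (standard error 0.203, adjusted p = 1.61e-11, at 4.39 without H929 DMSO replicate 1 and 5.26 without replicate 2), 3.95 for ITGAL (standard error 0.137, adjusted p = 1.58e-12) and 1.45 for SELPLG (standard error 0.104, adjusted p = 5.44e-09). For CD44 it was 5.29 (standard error 0.652, adjusted p = 2.88e-06, and 0.0472 in DESeq2), and it was 4.30 without H929 DMSO replicate 1 and 11.52 without H929 DMSO replicate 2. ITGAL and SELPLG fell in JJN3 and rose between the H929 labels, while ICAM1 fell in both and CD44 rose in both.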

How the results depend on the processing

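The receptors were recomputed under each alternative, 530 values in all, of which 516 kept their direction and their side of the threshold, 8 lost the threshold, 2 gained it and 4 turned sign. This tally includes the ITGB2 values of the comparisons in which its test is not used above. Alternatives that change only the limit reuse the same fit, so no direction could change under them. The 4 that turned were all ITGB1 values near 0, which the test did not call: the interaction (-0.052 to 0.195 when libraries were left out in turn, negative without JJN3 THZ1 replicate 2), the difference between lines with DMSO (-0.00051 with no filter on low counts, and -0.052 to 0.076 with libraries left out, negative without JJN3 DMSO replicate 2) and that with THZ1 (-0.0036 to 0.232, negative without JJN3 THZ1 replicate 2). The cause was not tested. With a log2 fold change beyond 1 in place of 0.5, 0 receptors were called lower in JJN3 in edgeR, at an adjusted or an unadjusted p, since the log2 fold changes of ITGAL, ICAM1 and SELPLG were -0.73 to -0.97, 1006 genes in all were lower and 1397 higher there, and 3146 were lower under the H929 labels. Leaving out each library in turn, JJN3 kept 3 receptors lower and 2 higher, with 2663 to 3115 of all genes lower and 2445 to 2989 higher. The comparison of lines with THZ1 had 4 to 5 receptors higher with ITGB2 counted, which was the one lost. The other counts of receptors did not change when a library was left out.

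With total counts in place of TMM, the median of all genes moved to 0.18 in the interaction and to 0.12 between lines with THZ1. ITGB2 in that comparison gave no value under 1 alternative. The replicate numbers did not pair the libraries, since the deviations of libraries with the same number correlated at -0.011 to 0.012 in the 4 comparisons. With the number as a block, JJN3 had 3013 genes lower and 2889 higher, and the call of no receptor changed. With 2 libraries per group, a difference such as that of CXCR4 in JJN3 is bounded by its standard error and is not shown to be absent.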
